A study of Homo sapiens with 11 samples.

Results

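Satellite repeats are tandem arrays of short units that make up much of the chromatin at centromeres, beside them, at chromosome ends and on the short arms of the acrocentric chromosomes. The satellite elements described here are all rows of the deposited repeat tables whose name begins with the class Satellite. They number 7918 of 5622516 repeat elements (0.141%), in 22 families. The row names place 2717 of them in a centromeric subclass, 449 in a telomeric subclass, 86 in an acrocentric subclass and 4666 in no subclass, called other satellites below.

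HCT116, a long-established line of human colorectal cancer cells, was the source of all RNA. J2 is an antibody that binds double-stranded RNA whatever its sequence, and the J2 libraries hold the RNA it captured. There were 3 J2 libraries, 1 per group: luciferase siRNA with DMSO (siLuc DMSO), luciferase siRNA with decitabine (siLuc DAC) and Staufen1 siRNA with decitabine (siStau1 DAC). The other 8 of the 11 libraries are total RNA, 2 for each combination of siRNA and drug. Per the labels, cells received 500 nM decitabine over 5 days. Luciferase siRNA is the control siRNA, DMSO the control solvent, and decitabine a nucleoside drug that traps DNA methyltransferases and lowers DNA methylation. Staufen1 is a protein that binds double-stranded RNA. A J2 library of Staufen1 siRNA with DMSO was not analysed here, so the effect of the knockdown without the drug could not be compared, and siStau1 DAC differs from siLuc DMSO in both siRNA and drug. The labels call the captured material J2-bound RNA, while the protocol text shared by all libraries speaks of a Staufen1 antibody. The group names used here are those of the labels.

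Much satellite DNA is heavily methylated and packed in heterochromatin, and transcripts of both strands of an array, or of inverted units within it, can pair into double-stranded RNA. Alpha satellite (ALR/Alpha) is the DNA on which the centromere protein CENP-A and the kinetochore assemble. Gamma satellites (GSAT, GSATII and GSATX) are GC-rich arrays beside centromeres. Human satellites II and III are long pericentromeric arrays built from a degenerate pentamer, which appears in the row names as a pair of families. In the family (GAATG)n, printed in capitals because the whole unit is repeated, the unit reads 5′ to 3′ as the name gives it. The family (CATTC)n carries the reverse complement of that unit, so both names describe one double-stranded repeat and differ only in the strand named. For the remaining families the files used here give names and reads but no sequence, position or length. Levels are therefore compared between libraries within a family, not between families, and no element is placed on a chromosome.

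The siLuc DAC library stood apart from the others, and every comparison with it rests on that 1 library. Reads on repeats numbered 71473124 for siLuc DMSO, 68944777 for siLuc DAC and 83037330 for siStau1 DAC. Of the repeat elements that reached 20 reads in both remaining libraries, 2.15% had no read in siLuc DAC; the same count for siLuc DMSO gave 0.202% and for siStau1 DAC 0.00420%. Where 3 values follow each other below, they are given in the order siLuc DMSO, siLuc DAC, siStau1 DAC. With 1 library per group there is no test between conditions, and the intervals given cover counting error only. Of elements with 1 to 6 reads, 65.1% to 71.0% had an even number, and what the counting did with the mates of a pair is not given in the sources used here, so the intervals may be too narrow. The antibody fraction has no input library here, so more RNA in the cells and more capture of it cannot be told apart, nor can more cells carrying an RNA and more RNA per cell. The total RNA fitted the labelled cells in most markers: 5 of 6 colorectal epithelial markers were at 1 FPKM or more in every group, VIL1 being the exception at up to 0.198 FPKM. All 3 leukocyte and both endothelial markers stayed under 1 FPKM, and of 3 fibroblast markers only COL1A1 passed it, at up to 8.60 FPKM in siLuc DAC. STAU1 itself was at 35.5 FPKM with luciferase siRNA and 30.0 with Staufen1 siRNA in DMSO, and at 33.7 and 27.1 in decitabine. The authors' deposited table did not call either knockdown difference in STAU1 (q = 0.767 in DMSO and 0.685 in DAC). The labels do not say whether the 2 total RNA libraries of a group came from separate cultures.

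Satellites held 142118, 110793 and 178262 reads. As a share of all repeat reads this was 0.199% (Wilson 95% interval 0.198% to 0.200%), 0.161% (0.160% to 0.162%) and 0.215% (0.214% to 0.216%). Satellites were thus a smaller part of the J2 repeat reads in siLuc DAC than in either other library. Fewer elements carried them as well: 1818, 1227 and 1852 elements (23.0%, 15.5% and 23.4%) had at least 1 read. Over all repeat elements the proportion with a read was 23.6%, 24.8% and 26.0%. There siLuc DAC was above siLuc DMSO but still below siStau1 DAC. Altogether 5608 satellite elements had no read in any library, 2310 had at least 1, and 969 had reads in all 3. Reads were concentrated, since the 10 elements with most reads held 31.6%, 36.1% and 32.5% of the satellite reads.

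The subclasses did not move together. Centromeric satellites had 47041, 15874 and 50196 reads. Scaled to the total on repeats, as RPM, this was 658, 230 and 604. Acrocentric satellites had 3937, 625 and 3307 reads, or 55.1, 9.07 and 39.8 RPM. Telomeric satellites had 7502, 4240 and 7795 reads, or 105, 61.5 and 93.9 RPM. Other satellites had 83638, 90054 and 116964 reads, or 1170, 1306 and 1409 RPM. Centromeric, acrocentric and telomeric satellites were thus lowest in siLuc DAC, while other satellites were lowest in siLuc DMSO. The centromeric part of the satellite reads went from 33.1% to 14.3% in siLuc DAC and was 28.2% in siStau1 DAC.

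Between siLuc DAC and siLuc DMSO, scaled to the totals on repeats, the log2 ratio of summed reads was −1.52 for centromeric satellites (95% counting interval −1.54 to −1.49), a level 2.86-fold lower. It was −2.60 for acrocentric satellites (−2.73 to −2.48), −0.77 for telomeric satellites (−0.83 to −0.72) and 0.16 for other satellites (0.14 to 0.17). The scale matters for the smaller of these. The authors' own factors raise every log2 ratio of this comparison by 0.89, which leaves centromeric satellites lower at −0.63 but puts telomeric satellites at 0.12 and all satellites together at 0.58. Scaling to reads outside Alu elements, the most abundant repeat family in these libraries, shifts every ratio by −0.32 and puts other satellites at −0.16. Centromeric and acrocentric satellites were lower in siLuc DAC under all 3 scalings. Of the centromeric reads, 1 run of 28 neighbouring GSAT rows held 16279, 602 and 15688. A further run of 116 GSATII rows held 4907, 16 and 4199. The lower centromeric level therefore rests in large part on these runs. The centromeric ratio without them was not computed, so the statement on all 3 scalings covers only all centromeric rows together.

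**Figure D1:**
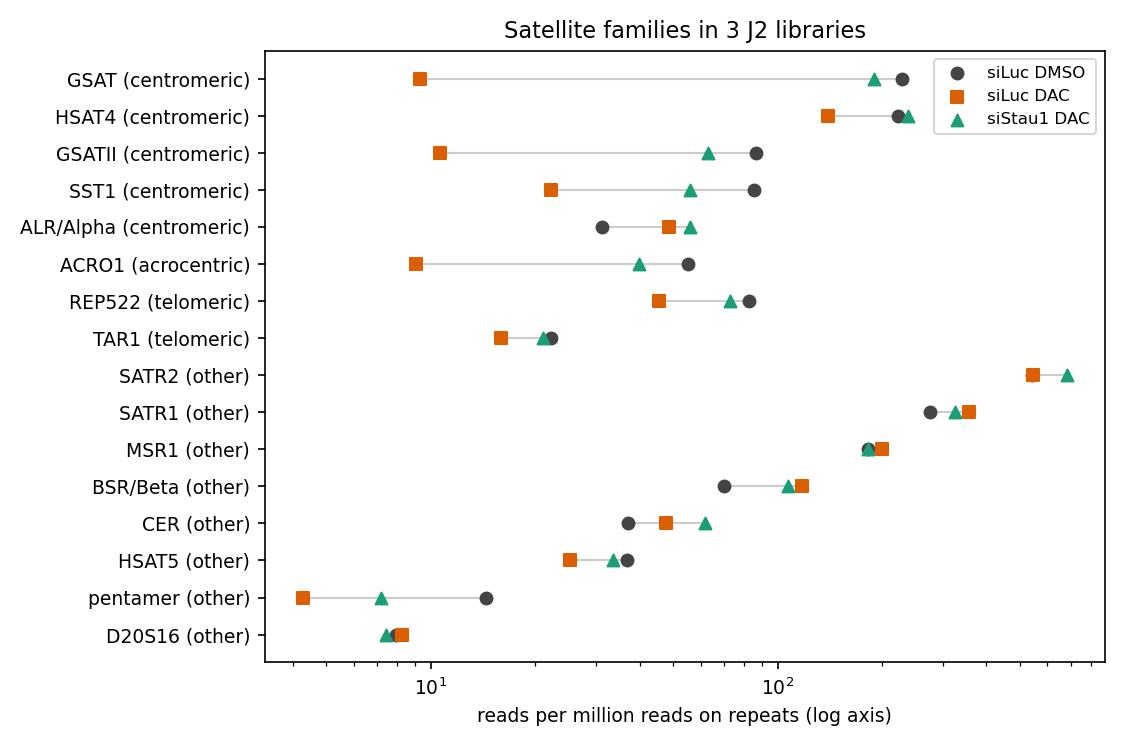
RPM on repeats (log axis) of the 16 satellite families with at least 1000 reads over the 3 J2 libraries, 1 point per library. GSAT, GSATII, ACRO1 and SST1 show the widest gaps, with the siLuc DAC point far to the left, while the MSR1 and D20S16 points nearly coincide; the pentamer is (GAATG)n.

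Among the centromeric families with at least 1000 reads, GSAT differed most. Its 39 elements held 16295, 644 and 15717 reads. The log2 ratio of siLuc DAC over siLuc DMSO was −4.61 (−4.73 to −4.50), a 24.4-fold lower level, and that of siStau1 DAC over siLuc DAC was 4.34 (4.23 to 4.46). The siLuc DMSO and siStau1 DAC libraries differed by only −0.27 (−0.30 to −0.24), a sign that the authors' factors turn to 0.30. A single GSAT element, the one with most reads, carried 6006, 234 and 5791 reads and by itself held 12.8% of all centromeric reads in siLuc DMSO.

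GSATII, the related gamma satellite with 175 elements, had 6208, 731 and 5217 reads. Its log2 ratios were −3.03 (−3.15 to −2.92) for siLuc DAC over siLuc DMSO and 2.57 (2.46 to 2.68) for siStau1 DAC over siLuc DAC. The GSATII element with most reads had 790, 0 and 672 reads. Bounds were set with 3 reads as the limit that a count of 0 allows, scaled to the totals on repeats. By these the element was at least 254-fold lower in siLuc DAC than in siLuc DMSO. It was at least 186-fold higher in siStau1 DAC than in siLuc DAC. The authors' factors make both bounds smaller. The third gamma satellite, GSATX, had 280, 2 and 209 reads over its 53 elements. In summed reads, all 3 gamma satellite families were therefore far lower in siLuc DAC than in either other library. For GSAT and GSATII this lay mostly in 1 run of rows each, described below. The other libraries differed less, with log2 ratios of siStau1 DAC over siLuc DMSO of −0.27 for GSAT, −0.47 for GSATII and −0.64 for GSATX.

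SST1, a tandem repeat with arrays on several chromosomes, had 6098, 1533 and 4644 reads over 650 elements. Its log2 ratios were −1.94 (−2.02 to −1.86) and 1.33 (1.25 to 1.41) in the same order of comparisons. The SST1 element with most reads, at 391, 346 and 393, did not share this pattern. HSAT4, with 100 elements, had 15937, 9608 and 19780 reads, and log2 ratios of −0.68 (−0.71 to −0.64) and 0.77 (0.74 to 0.81). Its lower level in siLuc DAC depends on the scaling, being 0.21 higher with the authors' factors. The 3 HSAT4 elements that each hold at least 10% of centromeric reads in some library had 5358, 2682 and 6061 reads, 4059, 2123 and 5185 reads, and 2825, 2514 and 4410 reads. All 3 were lowest in siLuc DAC in reads, by less than 2-fold against siLuc DMSO.

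Alpha satellite went the other way. Its 1700 elements, the most of any centromeric family, had only 2223, 3356 and 4629 reads. The log2 ratio over siLuc DMSO was 0.65 (0.57 to 0.72) for siLuc DAC and 0.84 (0.77 to 0.92) for siStau1 DAC, and both stayed above 0 under the other scalings. Between the decitabine libraries, siStau1 DAC over siLuc DAC was 0.20 (0.13 to 0.26), which the authors' factors turn to −0.13. Single alpha elements spread from −7.02 to 5.41 between siLuc DAC and siLuc DMSO. Of the 45 alpha elements with at least 20 reads, 21 were at least 2-fold higher and 15 at least 2-fold lower. Over all repeat elements with as many reads, 21.3% were higher and 17.0% lower, and over LINE elements 46.2% and 8.87%. The alpha element with most reads had 152, 382 and 364.

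ACRO1 is the only acrocentric family, and its 86 elements gave the 3937, 625 and 3307 reads stated above for that subclass. Its log2 ratio was 2.13 (2.01 to 2.26) for siStau1 DAC over siLuc DAC. The 3 leading ACRO1 elements had 2088, 327 and 1645 reads, 1200, 144 and 1158 reads, and 341, 75 and 275 reads, each lowest in siLuc DAC by at least 4-fold against siLuc DMSO.

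The telomeric subclass holds REP522 and TAR1, the telomere-associated repeat of subtelomeric regions. REP522 had 5917, 3140 and 6048 reads over 294 elements, with log2 ratios of −0.86 (−0.93 to −0.80) and 0.68 (0.61 to 0.74). TAR1 had 1585, 1100 and 1747 reads over 155 elements, with log2 ratios of −0.47 (−0.59 to −0.36) and 0.40 (0.29 to 0.51). With the authors' factors, the first ratio becomes 0.03 for REP522 and 0.41 for TAR1. The REP522 element with most reads had 1058, 799 and 1218, and that of TAR1 484, 432 and 583, so both were closer to even than their families. The telomere hexamer itself is a simple repeat and not a satellite in this naming. Its 276 elements had 643, 588 and 764 reads, a log2 ratio of −0.08 (−0.24 to 0.09) for siLuc DAC over siLuc DMSO, whose interval includes 0.

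(GAATG)n had 1030, 295 and 595 reads over 35 elements, and (CATTC)n had 83, 6 and 20 over 64 elements. For (GAATG)n the log2 ratio was −1.75 (−1.94 to −1.56) for siLuc DAC and −1.01 (−1.16 to −0.86) for siStau1 DAC, each over siLuc DMSO. It was lower than in siLuc DMSO in both decitabine libraries under all 3 scalings. Most of this lies in 2 neighbouring elements with 603, 2 and 194 reads, while a single other element had 408, 289 and 394. Rows of the same pentamer in the simple repeat class, 778 elements, had 1803, 852 and 1222 reads and log2 ratios over siLuc DMSO of −1.03 for siLuc DAC and −0.78 for siStau1 DAC.

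The other satellites include the families with most reads. SATR2 had 38711, 37645 and 56570 reads, a log2 ratio of 0.01 (−0.01 to 0.03) for siLuc DAC over siLuc DMSO, the interval including 0. SATR1 had 19686, 24526 and 27018 reads, a ratio of 0.37 (0.34 to 0.40) that became −0.07 without 1 group of 3 neighbouring elements with 4370, 10499 and 6164 reads. The row next to that group is the SATR2 element with most reads, at 4198, 9786 and 6876. These adjacent elements are thus high in siLuc DAC in both families. The minisatellite MSR1 had 13065, 13788 and 15112 reads and a ratio of 0.13 (0.10 to 0.16).

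Beta satellite (BSR/Beta), a repeat of acrocentric and pericentromeric regions and the family with most elements (1956), had 5014, 8106 and 8885 reads. Its log2 ratio over siLuc DMSO was 0.74 (0.69 to 0.80) for siLuc DAC and 0.61 (0.56 to 0.66) for siStau1 DAC. Beta satellite and alpha satellite thus had higher levels in both decitabine libraries than in siLuc DMSO, and this held under all 3 scalings. Many other repeat families did as well. Over the 1983 repeat families with at least 1000 reads, the median ratio over siLuc DMSO was 0.46 for siLuc DAC and 0.39 for siStau1 DAC. Counted from the highest ratio, beta satellite was family 671 for siLuc DAC and 558 for siStau1 DAC, and alpha satellite 775 and 223. CER, with 2643, 3288 and 5133 reads, had ratios of 0.37 (0.29 to 0.44) and 0.74 (0.67 to 0.81) over siLuc DMSO. HSAT5 had 2630, 1733 and 2787 reads, and D20S16 had 568, 568 and 618. The remaining small families were HSATI with 81, 38 and 67 reads, LSAU with 121, 57 and 125, SAR with 6, 4 and 34, and HSAT6 with none in any library.

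Counts over single elements show how widely these differences were spread. Of the 744 satellite elements with at least 20 reads in siLuc DMSO and siLuc DAC together, 268 (36.0%) were at least 2-fold lower in siLuc DAC and 115 (15.5%) at least 2-fold higher. Over the 604858 repeat elements with as many reads, 17.0% were lower and 21.3% higher. Satellites thus had a larger share of lower elements and a smaller share of higher ones than all repeat elements. Retroposon elements showed this too, with 36.9% lower and 4.90% higher. With the authors' factors the satellite counts were 202 lower (27.2%) and 272 higher (36.6%), against 6.73% and 46.2% over all repeat elements with the same factors. The median log2 ratio was −0.43 for satellites (order-statistic interval −0.60 to −0.30) and 0.01 for all repeat elements. By class the medians were 0.92 for DNA transposons, 0.86 for LINE, 0.57 for LTR, −0.25 for SINE and −0.54 for Retroposon elements.

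The share of lower elements differed between the subclasses. Of 183 centromeric elements 123 (67.2%) were at least 2-fold lower in siLuc DAC and 25 higher, with a median of −3.11. Since 72 of the 183 had no read in 1 of the libraries, the median with those set to 3 reads is also given, at −2.76. Of 65 telomeric elements 34 (52.3%) were lower and 2 higher, with a median of −1.26 (−1.27 at 3 reads). Of 8 acrocentric elements 7 were lower and none higher, with a median of −2.81 (−2.69 at 3 reads). Of 488 other elements 104 (21.3%) were lower and 88 higher, with a median of −0.01. The medians of families were −6.26 over 16 GSAT elements (−4.44 at 3 reads), −5.95 over 48 GSATII elements (−3.69) and −2.51 over 61 SST1 elements (−2.58). They were −1.62 over 44 REP522 elements (−1.69), 0.73 over 45 alpha satellite elements and 0.91 over 42 beta satellite elements. These elements share families and may share reads, so they are not independent replicates.

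**Figure D2:**
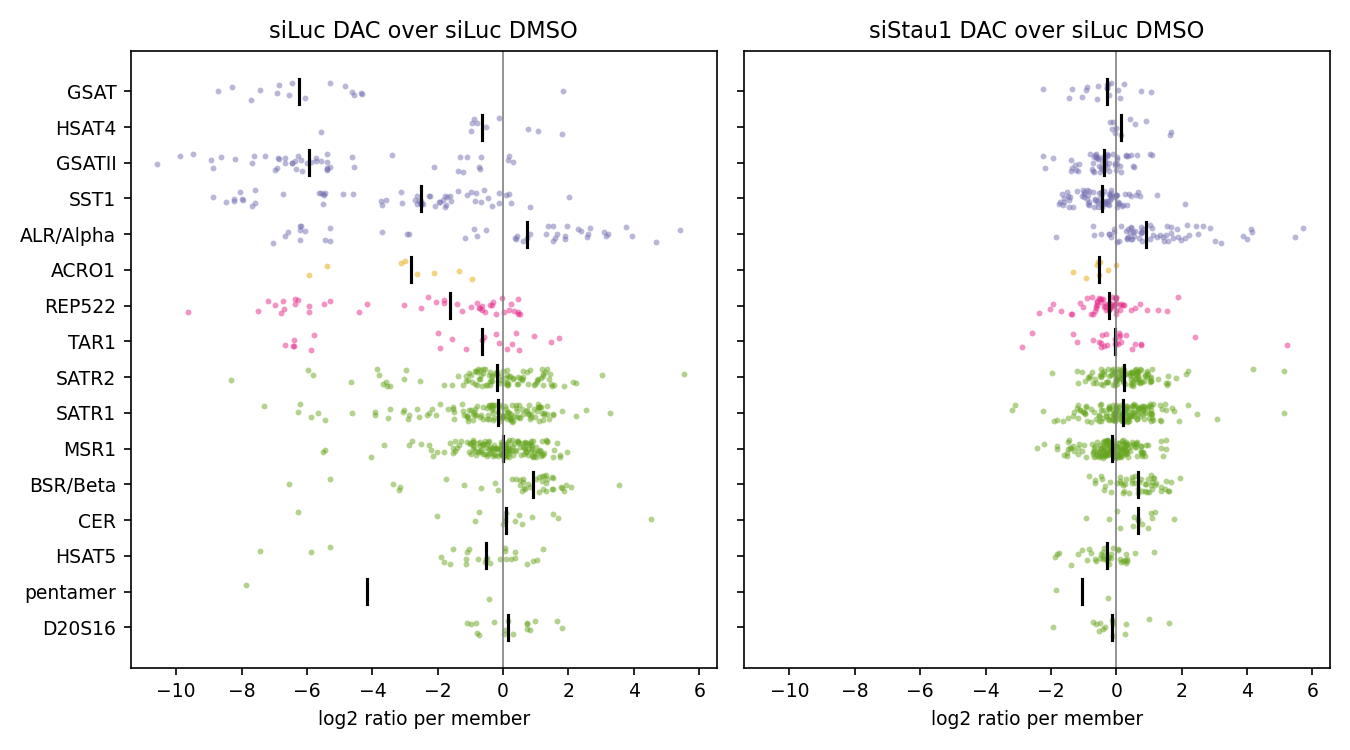
Log2 ratio per satellite element with 20 or more reads over both libraries compared, in the 16 families with at least 1000 reads, for siLuc DAC (left) and siStau1 DAC (right) over siLuc DMSO, with the median as a black line and colour for the subclass. In the left panel GSAT and GSATII elements lie mostly far below 0, alpha satellite elements spread over both sides, and MSR1, SATR1 and SATR2 elements gather around 0; in the right panel GSAT and GSATII medians are near 0.

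Whole families were compared in the same way. Of the 16 satellite families with at least 1000 reads, 5 (GSAT, GSATII, ACRO1, SST1 and (GAATG)n) were at least 2-fold lower in siLuc DAC than in siLuc DMSO and none was 2-fold higher. Over the 1983 repeat families with as many reads, 0.908% were lower and 22.6% higher. Counted from the lowest ratio, GSAT was family 2 of the 1983, GSATII 4, ACRO1 7, SST1 8 and (GAATG)n 9. The median was −0.51 over the satellite families and 0.46 over all families. With the authors' factors 4 of the 16 were still at least 2-fold lower, of 8 among all 1983, and 5 were 2-fold higher, of 1501.

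Between siStau1 DAC and siLuc DAC, the pair that differs by the siRNA alone, the picture was reversed. The summed log2 ratio was 1.39 for centromeric satellites (1.37 to 1.42; 2.63-fold higher), 2.13 for acrocentric (2.01 to 2.26), 0.61 for telomeric (0.56 to 0.66) and 0.11 for other satellites. Of 791 satellite elements 293 (37.0%) were at least 2-fold higher in siStau1 DAC and 72 (9.10%) lower. Over all repeat elements these shares were 15.5% and 14.8%, and over Retroposon elements 36.6% and 4.48%. Under the authors' factors the satellite counts were 250 higher (31.6%) and 121 lower (15.3%), against 10.5% and 22.2% over all repeat elements. Scaled to the totals on repeats, 136 of 205 centromeric elements were higher and 16 lower. Of 65 telomeric elements 34 were higher and 2 lower. At the level of families 4 of 16 were at least 2-fold higher (GSAT, GSATII, ACRO1 and SST1) and none lower, against 1.11% and 1.46% of all families. The authors' factors shift every ratio of this comparison by −0.32, which leaves those 4 families at least 2-fold higher and turns other satellites to −0.21. This comparison shares the siLuc DAC library with the first one, so low reads in that 1 library appear in both, with opposite signs.

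The third pair, siStau1 DAC over siLuc DMSO, does not include siLuc DAC. Its summed log2 ratios were small: −0.12 for centromeric satellites (−0.14 to −0.10), −0.16 for telomeric, −0.47 for acrocentric and 0.27 for other satellites (0.25 to 0.28). The authors' factors shift these by 0.57 and turn the first 3 to 0.44, 0.41 and 0.10. Of 859 satellite elements 116 (13.5%) were at least 2-fold higher and 91 (10.6%) lower, near the 14.5% and 8.27% over all repeat elements. Under the authors' factors the counts were 259 higher (30.2%) and 36 lower (4.19%), against 30.5% and 2.78% over all repeat elements. The median was −0.01 (−0.06 to 0.05). Of 64 alpha satellite elements 32 were at least 2-fold higher in siStau1 DAC and 1 lower, with a median of 0.91. Of 51 beta satellite elements 17 were higher and none lower, with a median of 0.68. Of 57 GSATII elements 2 were higher and 10 lower, and of 73 SST1 elements 2 were higher and 15 lower. No satellite family of the 16 was 2-fold higher, against 5.40% of all families, and 1 was 2-fold lower, against 0.0504%. That family is (GAATG)n, the only one of the 1983 that was at least 2-fold lower here, and with the authors' factors its ratio was −0.44.

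**Figure D3:**
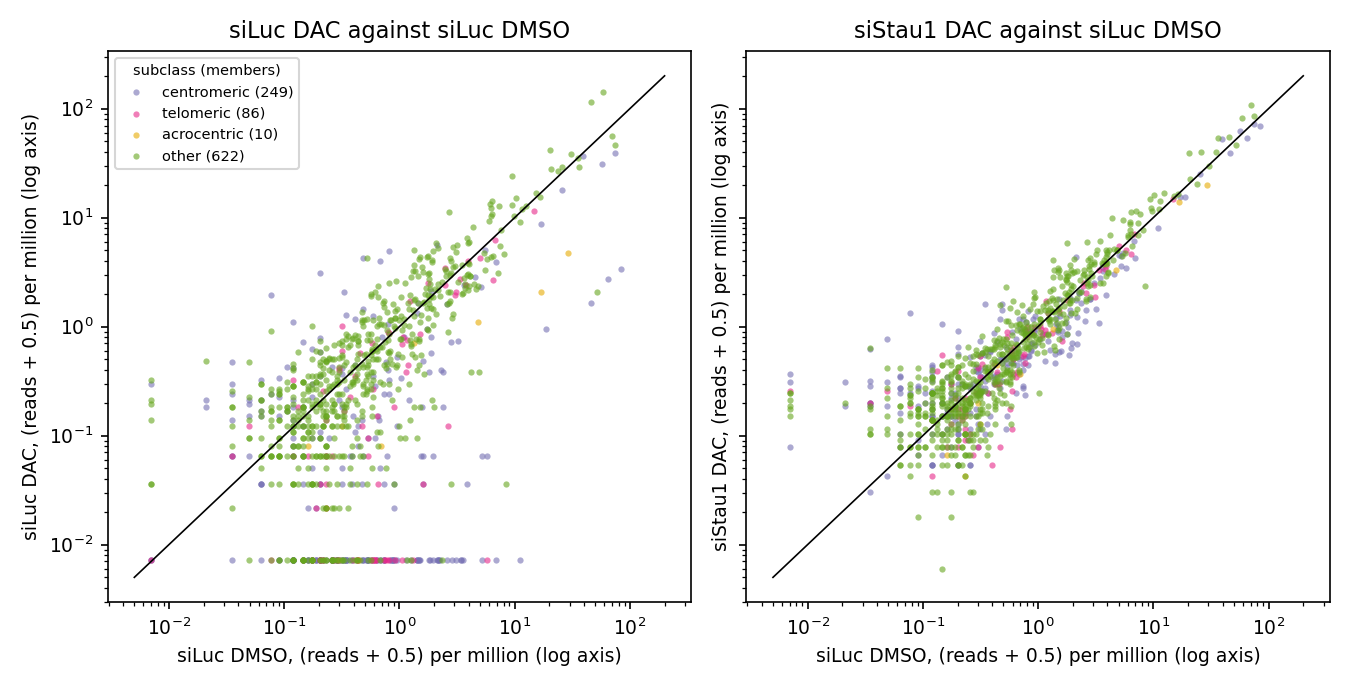
RPM per satellite element (log axes, 0.5 reads added) for elements with 20 or more reads over all 3 libraries, siLuc DMSO against siLuc DAC and against siStau1 DAC, coloured by subclass. Many centromeric elements that are well covered in siLuc DMSO lie at the bottom of the siLuc DAC panel. In the siStau1 DAC panel most elements lie near the diagonal, with some centromeric and other elements well above it.

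A number of satellite elements had no read at all in siLuc DAC while both other libraries had at least 20. This was so for 88 of 537 satellite elements (16.4%), against 2.15% of all repeat elements, 5.37% of LTR, 2.92% of LINE and 1.72% of SINE elements. It held for 62 of 146 centromeric elements (42.5%), 16 of 53 telomeric (30.2%), 1 of 6 acrocentric and 9 of 332 other elements (2.71%). By family, it was 27 of 43 for GSATII, 9 of 14 for GSAT, 14 of 54 for SST1, 9 of 25 for alpha satellite, 11 of 36 for REP522 and 5 of 17 for TAR1. It was 2 of 39 for beta satellite, 3 of 76 for SATR2, 2 of 79 for SATR1 and 0 of 99 for MSR1. No satellite element had 0 reads in siLuc DMSO (of 384) or in siStau1 DAC (of 363) with 20 in both others, and over all repeat elements these shares were 0.202% and 0.00420%, so the counts of 0 are near the background. GSATII elements were the most frequent among the 88 without a read in siLuc DAC, which also held a REP522 element with 412, 0 and 419 reads (at least 132-fold lower in siLuc DAC than in siLuc DMSO). A GSAT element with 219, 0 and 208 reads (at least 70.4-fold lower) and a SATR2 element with 166, 0 and 223 reads (at least 53.4-fold lower) were also among them. These 3 elements were chosen after their values were seen. Their bounds are scaled to the totals on repeats and are smaller with the authors' factors.

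**Figure D4:**
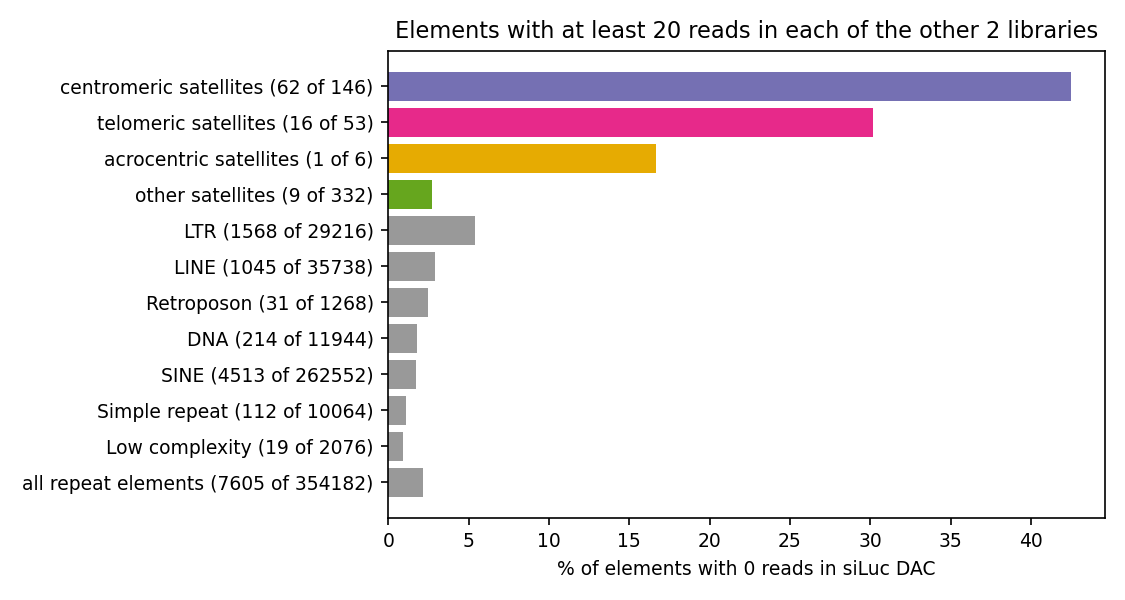
Share of elements with 0 reads in siLuc DAC among those that reached 20 reads in both other J2 libraries, for satellite subclasses and other repeat classes, in percent. Centromeric (42.5%) and telomeric (30.2%) satellites stand above LTR (5.37%), while other satellites (2.71%) lie near LINE elements (2.92%).

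In several families the low reads in siLuc DAC lay in runs of neighbouring table rows. Rows of a family no more than 100 rows apart were taken as a block; what the order of rows stands for is not given in the sources used here. For GSAT, 1 block of 28 elements held 99.7% of the family's reads, with 16279, 602 and 15688. The remaining 11 GSAT elements had 16, 42 and 29 reads and a log2 ratio of 1.42, so the family's lower level rests on that block. For GSATII, 1 block of 116 elements had 4907, 16 and 4199 reads, a log2 ratio of −8.16. The other 59 GSATII elements had 1301, 715 and 1018 reads and a ratio of −0.81. The authors' factors raise it by 0.89 and so turn it positive. Other blocks of the same family were thus much less affected, the second at 456, 251 and 370 reads and the third at 292, 290 and 223.

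SST1 was more spread out. Its block with most reads, 17 elements, had 1799, 8 and 871 reads, and the rest of the family still had 4299, 1525 and 3773 (−1.44). For ACRO1, 2 neighbouring elements held 83.4% of the reads, at 3288, 471 and 2803, and the rest had a ratio of −2.02. HSAT4 had 99.1% of its reads in 1 block of 27 elements, at 15818, 9515 and 19605. Alpha satellite blocks differed in direction: a block of 77 elements had 202, 556 and 790 reads, one of 44 elements had 424, 215 and 549, and one of 3 elements had 96, 627 and 244. In beta satellite, 1 block of 28 elements with 2571, 5444 and 4607 reads held 57.4% of the family, and without it the ratio of siLuc DAC over siLuc DMSO was 0.18.

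**Figure D5:**
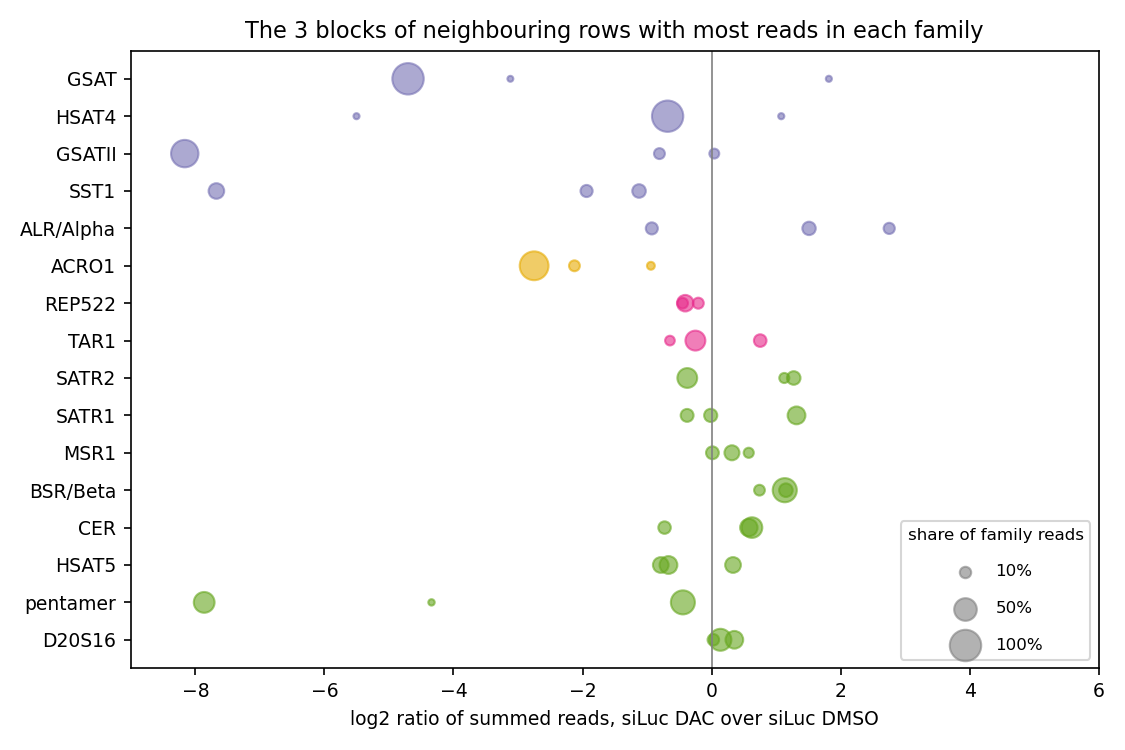
Log2 ratio of summed reads, siLuc DAC over siLuc DMSO, for the 3 blocks of neighbouring rows with most reads in each satellite family, with larger dots for a larger share of the family's reads. The leading GSATII and SST1 blocks and a pentamer block lie near −8, while further blocks of GSATII and both leading HSAT5 blocks lie within 1 of 0.

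Rows of other repeat classes next to these blocks were low in siLuc DAC in several cases. The 258 rows of other classes beside the leading SST1 block had 869, 2 and 700 reads. The 195 beside the GSAT block had 119, 12 and 208, and the 187 beside the GSATII block had 36, 10 and 44. Beside the leading ACRO1 block, 184 rows had 3793, 1471 and 3426 reads, a log2 ratio of −1.31 for siLuc DAC over siLuc DMSO. Beside the HSAT4 block, 184 rows had 3272, 2580 and 3670 reads, close to even. The low reads at the GSAT, SST1 and ACRO1 blocks were thus not limited to satellites. Over the whole table, in windows of 100 rows with at least 200 reads on other classes, those classes were at least 8-fold lower in siLuc DAC in 1122 of 21821 windows (5.14%). Satellites within these windows had 3041, 103 and 2420 reads, 2.14% of the satellite reads in siLuc DMSO but 19.2% of the telomeric ones. In the other such windows telomeric satellites had 5507, 4131 and 5882 reads (−0.36), centromeric ones 19232, 13147 and 23809 (−0.50) and acrocentric ones 3631, 550 and 3078 (−2.67). These ratios are scaled to the totals on repeats. The authors' factors raise each by 0.89, which turns the telomeric and centromeric ones positive but not the acrocentric one. The remaining centromeric reads, 58.1% of those in siLuc DMSO, lay in windows with too few reads of other classes to judge (27336, 2710 and 26062). The part of such low stretches of the siLuc DAC library in the satellite results was not tested.

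Genes that act at satellites were looked up in the authors' deposited Cuffdiff table of total RNA, which gives 1 FPKM per group of 2 libraries and so carries no spread between libraries. The 36 genes form 4 lists: centromere assembly (10 genes), satellite DNA methylation (7), pericentromeric heterochromatin (9) and telomere (10). For decitabine in siLuc the authors' table called 4 of the 36 lower and none higher at a q of 0.05, against 4.78% lower and 8.71% higher over all genes tested (13.5% in all). The median log2 ratio was −0.93 for centromere genes, −0.25 for methylation genes, −0.50 for heterochromatin genes and −0.15 for telomere genes, and 0.23 over all genes tested. For decitabine in siStau1 it also called 4 lower and none higher, against 2.89% and 4.56% (7.46% in either direction). There the medians were −0.85 for centromere, −0.30 for methylation, −0.57 for heterochromatin and 0.39 for telomere genes, and 0.11 over all genes tested.

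ATRX, a chromatin remodeller of telomeric and pericentromeric repeats (hg38 chromosome X, 77504878 to 77786233), was at 26.1 and 7.60 FPKM in DMSO and decitabine with luciferase siRNA, and at 45.1 and 18.5 FPKM with Staufen1 siRNA. It was lower with decitabine in both siRNA arms (q = 0.003 and 0.033). It was also the only gene of the lists called between siStau1 DAC and siLuc DAC, where it was higher (q = 0.034; not called at q under 0.01, nor with q adjusted within that comparison), against 0.434% of genes called higher and 0.469% lower (0.904% in all). MIS18A, which licenses centromeres for new CENP-A (chromosome 21, 32268219 to 32280988), was at 20.1, 5.83, 26.2 and 8.59 FPKM in the same order and was called lower in both arms (q = 0.002 and 0.004). CENPC, which links CENP-A chromatin to the kinetochore (chromosome 4, 67468748 to 67545606), was at 9.85, 3.02, 14.7 and 5.80 FPKM and was called lower in both (q = 0.023 and 0.041). Each of these genes was lowest in siLuc DAC.

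CDCA7, a partner of the remodeller HELLS that is mutated in a syndrome of satellite hypomethylation (chromosome 2, 173338219 to 173368997), was at 34.1, 14.3, 34.7 and 17.5 FPKM and was called lower in siLuc (q = 0.026). A call in 1 arm and not the other does not show that the arms differ, and that difference was not tested. The following genes were called in none of the 4 comparisons. DNMT1, the maintenance methyltransferase, was at 115, 86.2, 204 and 79.4 FPKM. DNMT3B, the methyltransferase mutated in the same syndrome as CDCA7, was at 9.42, 11.2, 8.65 and 9.70 FPKM, so its levels lay close together. HELLS was at 50.3, 19.2, 71.5 and 33.0 FPKM. CENPA, the centromeric histone H3, was at 26.8, 14.2, 22.7 and 12.5 FPKM. CENPB, which binds a motif in alpha satellite, was at 24.0, 39.3, 13.9 and 28.2 FPKM, higher in both decitabine groups in value. The telomere proteins TERF2 and POT1 were at 19.2, 22.1, 19.5 and 22.5 FPKM and at 12.7, 8.77, 22.1 and 10.8 FPKM. For knockdown in DMSO the authors' table called none of the 36 genes, against 0.333% higher and 0.466% lower over all genes tested (0.799% in all), and 2 had an unadjusted p under 0.05.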

How the data were processed

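J2 reads on repeats were read from 3 deposited tables and gene levels from the authors' deposited table of total RNA. Per the submitters' processing notes, which give no roles, the tools were bcl2fastq 2.20, HISAT2 2.1.0, featureCounts, DESeq 1.36.0, Cuffdiff 2.2.1 and Cuffnorm 2.2.1, and the build hg38. How reads that map to several copies of a repeat were assigned is not given in the sources used here.

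The deposited siLuc DMSO column holds the count of each element plus 1. The other 2 deposited J2 columns hold a signal, the count plus 1 multiplied by a factor set by the authors; dividing by each column's minimum and subtracting 1 gave values within 1e-06 of a whole number for 100% of elements. Deposited FPKM values, p-values and q-values of genes are the authors' own. No per-sample column was left unused (0).

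Log2 ratios add 0.5 reads to each library and are scaled to its total on repeats. The medians with counts of 0 set to 3 reads leave out the added 0.5. Elements needed 20 reads or more over the pair compared, and at least 2-fold counts as higher or lower. Intervals on shares are Wilson, those on ratios exact binomial (Clopper-Pearson), those on medians from order statistics, all at 95%. With 1 library per group no test was made. A list of genes is described by the authors' calls at q under 0.05. Families with at least 1000 reads over the 3 libraries are described, and elements are named where they have most reads in such a family or at least 10% of a subclass. Genes are named where the authors called them, with 7 more chosen for their role; 1 called gene is not reported here. Members and lists were chosen with earlier results of these data known. Scripts ran in Python 3.11.15 with numpy 2.4.6, pandas 2.3.3, scipy 1.17.1 and matplotlib 3.10.9 and were tested on simulated data.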

Additional observations from a re-analysis of the deposited data

How the results depend on the processing

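No paired analysis was possible because the total RNA table gives 1 value per group and each J2 group has 1 library. No library was left out, since each group has 1 value. Values below are log2 ratios in the order all, centromeric, telomeric and other satellites unless named.

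For siLuc DAC over siLuc DMSO they were 0.58, −0.63, 0.12 and 1.05 with the authors' factors, −0.63, −1.84, −1.09 and −0.16 scaled outside Alu, −0.40, −1.43, −0.93 and −0.036 without the top element of each family, and −0.19, −1.28, −0.42 and 0.19 over elements with reads in every library. For siStau1 DAC over siLuc DAC they were 0.10, 1.07, 0.29 and −0.21 with the authors' factors, 0.63, 1.60, 0.82 and 0.32 outside Alu, 0.53, 1.32, 0.73 and 0.30 without the top elements, and 0.33, 1.20, 0.31 and 0.085 over elements with reads in every library. For siStau1 DAC over siLuc DMSO they were 0.68, 0.44, 0.41 and 0.83 with the authors' factors (acrocentric 0.10) and −0.0029, −0.24, −0.27 and 0.15 outside Alu. Without the top elements all satellites were at 0.13 and telomeric at −0.21, and over elements with reads in every library all, centromeric and telomeric were at 0.14, −0.077 and −0.11. The causes of these moves were not tested beyond the change of scale or of elements itself.

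The median over elements for siLuc DAC over siLuc DMSO was −0.60 with at least 10 reads, −0.16 with at least 100 and 0.46 with the authors' factors. For siStau1 DAC over siLuc DAC it was 0.18 with at least 100 reads and 0.17 with the factors, and for siStau1 DAC over siLuc DMSO 0.55 with the factors. Elements at least 2-fold higher and lower numbered 51 and 80, 64 and 15, and 28 and 21 in the 3 comparisons with at least 100 reads. Past 4-fold, 23 were higher and 196 lower in the first comparison, 213 higher and 16 lower in the second, and 27 higher and 13 lower in the third. With the authors' factors 272 were higher and 202 lower in the first, 250 higher and 121 lower in the second, and 259 higher and 36 lower in the third. The satellite share was 0.467%, 0.302% and 0.466% of reads outside Alu, and 0.160%, 0.121% and 0.174% without the top elements. Genes called in the lists numbered 2, 2 and 0 at q under 0.01 for decitabine in siLuc, decitabine in siStau1 and knockdown in DAC, and 7 and 0 with q adjusted within the comparison for the first and last.

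Single families changed sign as follows. With the authors' factors, HSAT4, HSAT5, REP522 and TAR1 were at 0.21, 0.34, 0.027 and 0.41 in siLuc DAC over siLuc DMSO. ALR/Alpha and SATR2 were at −0.13 and −0.0030 in siStau1 DAC over siLuc DAC. ACRO1, GSAT, GSATII, HSAT5 and REP522 were at 0.10, 0.30, 0.10, 0.43 and 0.38 in siStau1 DAC over siLuc DMSO. D20S16, MSR1 and TAR1 were at 0.47, 0.56 and 0.49 there. Scaled outside Alu, MSR1, SATR2 and D20S16 were at −0.19, −0.31 and −0.27 in the first comparison. BSR/Beta, MSR1, SATR1 and D20S16 were at 0.073, 0.073, 0.080 and 0.062 in the second, and HSAT4 at −0.018 in the third. Without the top element, SATR1 was at 0.17 in the second comparison, SATR2 at −0.26 in the first and MSR1 at 0.023 in the third. Over elements with reads in every library, ALR/Alpha was at −0.22 in the second and TAR1 at 0.037 in the third. Without the largest block of each family, an alternative chosen after seeing the data, GSAT was at 1.42, −0.80 and 0.62. SATR1 was then at −0.075 and 0.30 in the first and second comparison, and BSR/Beta at 0.42 in the second. D20S16 was at −0.026 in the first and MSR1 at 0.015 in the third.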
